A study of Bos taurus with 20 samples.

Results

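The secreted frizzled-related proteins SFRP1, SFRP2 and SFRP5 were followed in skin of the head of cattle that differ in horn growth. The array carried 3 probes for them among 21475 probes, 1 probe per gene, found by the gene names and descriptions in the scanner files. The genes were selected on earlier results of these arrays: SFRP2 and SFRP1 for their polled minus horned differences, while for SFRP5 no selecting value is recorded. Their values in that comparison are therefore a description, and no test of them is given there.

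Biopsies of the horn-forming region came from 4 polled cattle (hornless), 4 scurred cattle (with loose, rudimentary horns) and 3 horned cattle. Control skin from the skull away from the horn site came from 1 of the polled animals (replicate 3) and 1 of the scurred animals (replicate 2), so there were 13 RNAs in all. All biopsies held epidermis, dermis and dermal connective tissue together, and no genotype at a horn locus was used here. The polled group had 1 male and 3 females, the scurred group 3 males and 1 female, the horned group 2 males and 1 female, and both control biopsies were from females. RNAs were hybridised in pairs to 20 two-colour arrays on 5 chips, and each of chips 1 to 4 joined 1 polled, 1 scurred and 1 horned animal. Horned replicate 2 served on chips 2 and 4. On all 4 of these chips 1 of the polled and scurred animals was male and the other female, so horn type and sex overlap.

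WNT proteins are secreted signals that bind frizzled receptors together with LRP co-receptors and stabilise beta-catenin in the receiving cell. Secreted frizzled-related proteins carry a cysteine-rich domain like that of the frizzled receptors, so they can bind WNTs outside the cell and alter how much signal is received. SFRP1, SFRP2 and SFRP5 form one branch of the family, and SFRP4 and FRZB (also called SFRP3) form another. In mouse and human skin SFRP2 is known as a gene of dermal fibroblasts, and the protein has also been linked to procollagen processing by BMP1. WNT signalling is known for its role in hair follicle formation and in bone.

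Because each gene rests on 1 oligonucleotide, the start of each probe is shown to let the 3 be told apart. The first 30 of the 60 bases are given 5′ to 3′ as the scanner files list them, and capitals mark the longest run of letters that a stretch shares with one of the others on the same strand.
SFRP1: catGCTTttcctgccatgtatcaatattca
SFRP2: tgCAGAttaaaccattgtagcttacctgta
SFRP5: tccCAGAagctcgctcctcagcctccgcgt
The shared run was 4 bases in each stretch. Over the full 60 bases the longest run shared by a pair of probes on either strand was 7 bases (SFRP1 and SFRP5), and the best alignment without gaps matched 22 bases at most (SFRP2 and SFRP5). GC content was 35.0% in the SFRP1 and SFRP2 probes and 50% in the SFRP5 probe. The duplicate spots of a probe on an array differed by a median of 0.067 for SFRP2, 0.185 for SFRP1 and 0.106 for SFRP5 (log2 ratio).

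Every member was bright in every RNA. SFRP2 spots ranged from 334 to 96106 intensity units, SFRP1 from 1550 to 38351 and SFRP5 from 381 to 6586, against local backgrounds of 56 to 78. No member spot was saturated or marked as faulty, so no difference of these 3 genes is a bound. Over all probes, 64.46% to 73.53% of spots on an array were well above background. Of the skin markers, 9 of 10 keratinocyte genes and 16 of 17 dermal fibroblast genes were bright enough to be tested, beside 16309 of all 21475 probes. Endothelial genes were tested in 5 of 5, so these counts do not identify the tissue. Scurred replicate 1 stood somewhat apart, since its levels correlated with those of the other RNAs at 0.928 on average over all probes, where the others had 0.952 to 0.967. This animal was on chip 1, whose scan day differed from that of the other chips according to the scanner headers.

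SFRP2 was far lower in polled than in horned skin, while the mean of scurred skin lay nearer to that of horned than of polled skin. Its levels were 12.70, 9.38, 9.86 and 9.66 in polled replicates 1 to 4 (log2 normalised intensity). They were 13.19, 14.30, 13.52 and 14.86 in scurred replicates 1 to 4, against 15.09, 14.70 and 15.29 in horned replicates 1 to 3. Every polled animal was below every scurred and every horned animal, and polled replicate 1 was the highest of its group. The scurred and horned ranges overlapped, as scurred replicate 4 exceeded horned replicate 2. Scurred replicate 4 also stood apart in cartilage and bone marker genes, with a summed level of 17.775. The other RNAs had 12.912 (polled replicate 1) to 15.195 (horned replicate 3). The bone gene IBSP was at 12.547 in it. Whether this bears on its SFRP2 or SFRP5 level was not tested. The means were 10.40 ± 1.54 in polled (SD, n = 4), 13.97 ± 0.76 in scurred (n = 4) and 15.03 ± 0.30 in horned animals (n = 3). Repeat readings of 1 RNA in different array channels had an SD of 0.182 at the median and 0.427 at most, which covers technical spread only.

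**Figure D1:**
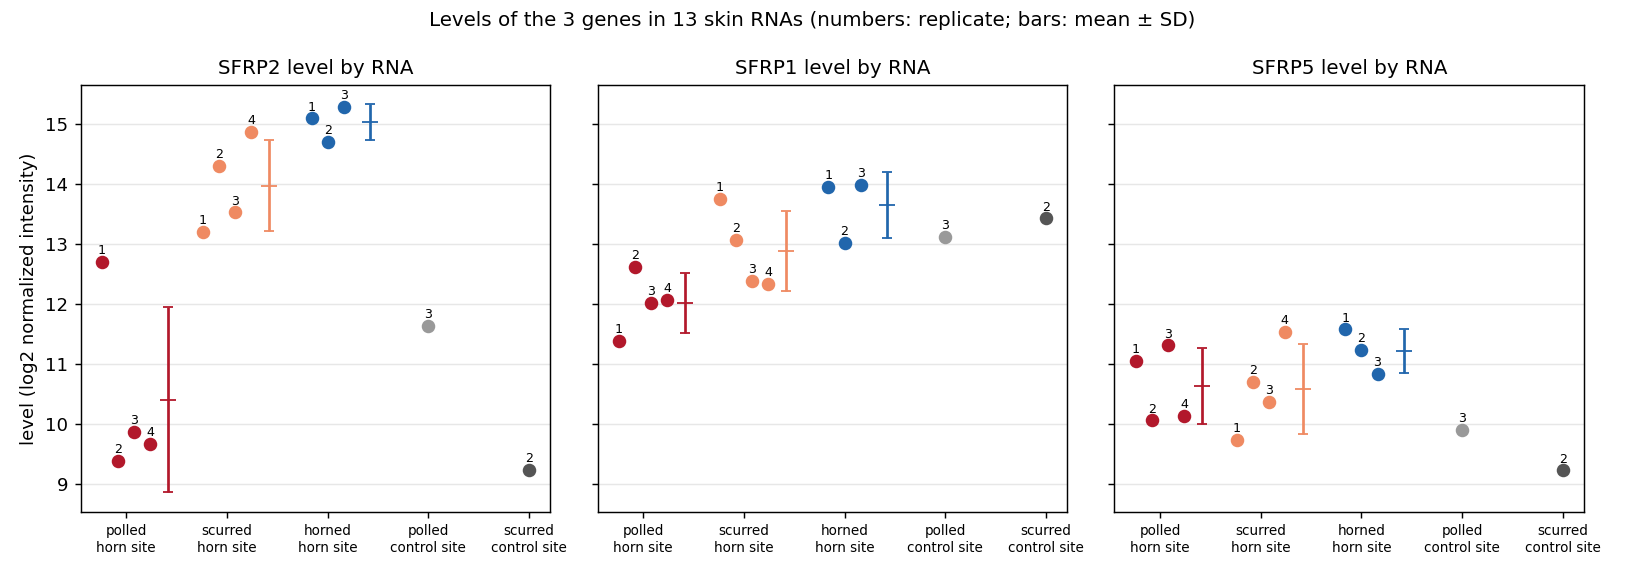
Level of SFRP2, SFRP1 and SFRP5 (vertical axis, log2 normalised intensity) in each of 13 RNAs, by horn type and biopsy site, with replicate numbers and, for groups of more than 1 animal, mean ± SD. For SFRP2 the polled animals lie at 9.38 to 12.70 and the horned animals at 14.70 to 15.29, whereas SFRP5 overlaps between all 3 horn types. Levels of different probes are not comparable with each other.

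On the chips themselves, the SFRP2 difference of the polled animal from its horned partner was −2.45, −5.37, −5.48 and −4.98 on chips 1 to 4 (log2), a 5.48-, 41.4-, 44.8- and 31.6-fold lower level. The raw spots show the same gap. On the chip 3 array with the polled RNA in Cy5, SFRP2 read 590.6 in polled replicate 3 and 34086.4 in horned replicate 3, and with the dyes exchanged it read 665 and 33832.3. The fit with the chip as a block and a term for sex gave polled minus horned as −4.83 (SE 0.84), a 28.4-fold lower level in polled skin. By size this was the largest of 16309 fitted differences, and the gene was selected with this value known. Without polled replicate 1 the value was −5.59, and without chip 2 it was −3.96. Going from polled to horned through the scurred animal of the same chip gave values within 0.088 to 0.725 of the direct ones, where the median gap over all probes was 0.123 to 0.175.

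In scurred animals SFRP2 differed from the horned animal by −1.99, −0.47, −1.72 and 0.22 on chips 1 to 4. It was lower on 3 of 4 chips, and the fitted difference of −0.95 (SE 0.80, 95% interval −2.84 to 0.94) did not pass (adjusted p 0.9998, limma). Without scurred replicate 1 it was −0.22. Scurred minus polled was 0.46, 4.90, 3.76 and 5.20 on the 4 chips, higher on each of them. The fit gave 3.88 (SE 0.815), 14.7-fold higher in scurred skin, and this too did not pass over all probes (adjusted p 0.784, limma). It shares the polled animals with the comparison that selected the gene, as scurred minus horned shares the horned ones. The small value of chip 1 goes with both a higher polled and a lower scurred level than on the other chips. Horn type and sex cannot be fully told apart here, and without the sex term scurred minus polled was 3.58.

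**Figure D2:**
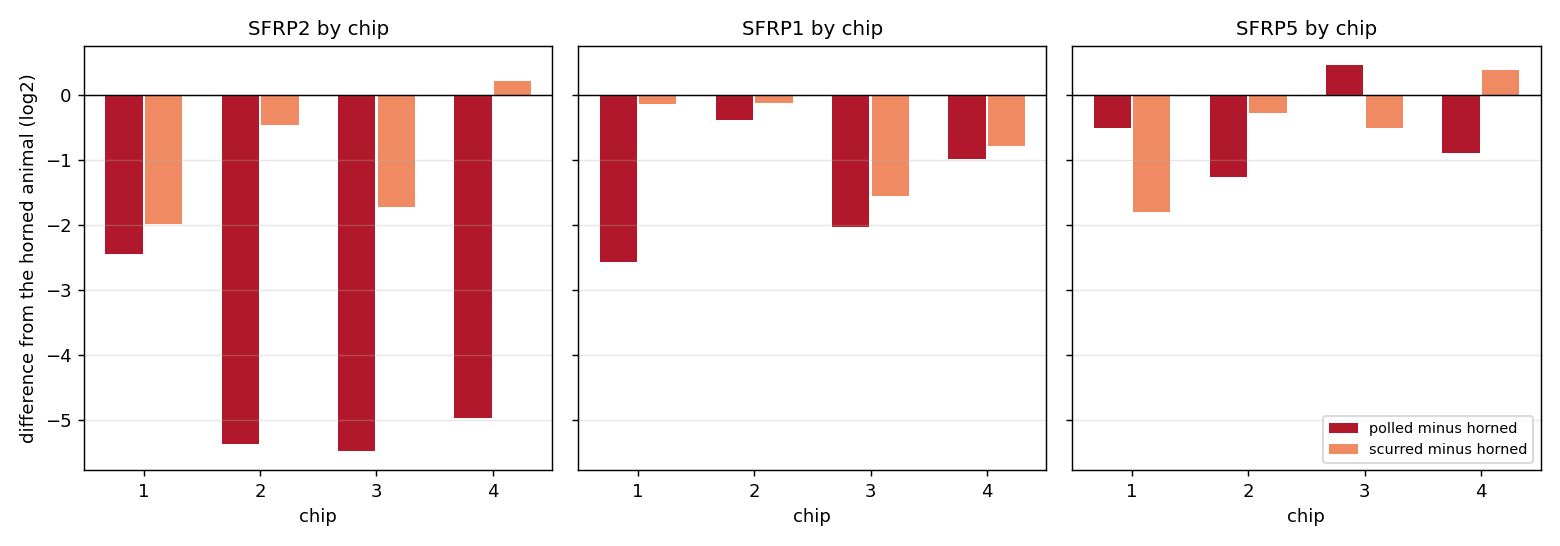
Difference from the horned animal of the same chip (log2, vertical axis) for the polled and the scurred animal on chips 1 to 4, not adjusted for sex. SFRP2 in polled animals is below −2 on every chip and below −4 on chips 2 to 4, and the scurred bars lie between −1.99 and 0.22.

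SFRP1, a broad WNT antagonist, showed a smaller difference. Its levels were 11.38, 12.61, 12.01 and 12.06 in polled replicates 1 to 4 and 13.74, 13.06, 12.38 and 12.33 in scurred replicates 1 to 4, against 13.95, 13.01 and 13.99 in horned replicates 1 to 3. Polled and horned animals did not overlap, and scurred animals overlapped both. Means were 12.01 ± 0.50 in polled, 12.88 ± 0.67 in scurred and 13.65 ± 0.55 in horned animals (SD, n = 4, 4 and 3). Polled minus horned was −2.58, −0.38, −2.04 and −0.99 on chips 1 to 4, lower on 4 of 4, and the fitted value was −1.42 (SE 0.456), a 2.68-fold lower level. Scurred minus horned was −0.14, −0.12, −1.56 and −0.78 by chip, also lower on 4 of 4, with a fitted −0.85 (SE 0.434, adjusted p 0.9998, limma) that did not pass. Scurred minus polled was 2.44 on chip 1 and 0.20 to 0.48 on chips 2 to 4, and the fitted 0.57 (SE 0.442, adjusted p 0.879, limma) did not pass. With a single chip or animal omitted it ranged from 0.14 to 1.03.

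SFRP5, the third gene of the branch, did not separate the horn types. Its levels were 11.04, 10.05, 11.30 and 10.13 in polled replicates 1 to 4, 9.72, 10.69, 10.36 and 11.53 in scurred replicates 1 to 4, and 11.57, 11.22 and 10.83 in horned replicates 1 to 3. All 3 ranges overlapped, and the means of 10.63 ± 0.63, 10.58 ± 0.75 and 11.21 ± 0.37 (SD, in the same order) lay within the spread of the animals. Polled minus horned was −0.51, −1.26, 0.46 and −0.90 by chip, lower on 3 of 4, with a fitted −0.74 (SE 0.528). Omitting a single chip or animal gave −1.07 to −0.10, the last without chip 2. Scurred minus horned had a fitted −0.50 (SE 0.503, adjusted p 0.9998, limma) and scurred minus polled 0.24 (SE 0.512, adjusted p 0.964, limma). On 2 chips the scurred animal was above the polled one and on 2 below it.

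These counts stand against the following background. Levels of all polled animals lay below those of all horned animals for 4.98% of 16309 probes, and this held for SFRP1 and SFRP2, which were selected on that comparison. All polled animals lay below all scurred animals for 1.37% of probes, among them SFRP2. All scurred animals lay below all horned animals for 2.7% of probes, and for none of the 3 genes. At an adjusted p under 0.05 in limma, 0.00613% of probes (1 probe, for AIF1) were called in polled minus horned, 0% in scurred minus horned, 0% in scurred minus polled, 0.0184% in male minus female and, of 16423 probes, 0% in horn site minus control site. At an unadjusted p under 0.05 the numbers were 1495, 613, 991, 353 and 805 in the same order, and no count of 0 here means that nothing differed. Replicates are different animals, and their number limits all these tests.

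The control biopsies gave SFRP2 opposite differences in the 2 animals that had them. In polled replicate 3, SFRP2 was lower at the horn site (9.86) than at the control site (11.63), with array differences of −1.44 and −2.01 in the 2 dye orders. In scurred replicate 2 it was higher at the horn site (14.30) than at the control site (9.22), with 5.29 and 4.82. The means were −1.72 (3.30-fold lower at the horn site) and 5.05 (33.2-fold higher). The control level of the scurred animal was the lowest of all 13 RNAs. Opposite signs with at least 1 on both sides occurred for 0.518% of 16423 probes. With 1 animal on each side the contrast between horn types was not tested, and the mean over both animals, 1.66 (SE 1.96, adjusted p 0.992, limma), describes neither.

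SFRP4, which belongs to the other branch of the family, had the same pair of signs as SFRP2, at −1.44 in polled replicate 3 and 4.71 in scurred replicate 2. Its levels were 13.63 at the horn site and 15.04 at the control site of the polled animal, and 13.89 at the horn site and 9.18 at the control site of the scurred animal. FRZB was higher at the horn site in both, by 0.49 in the polled and 2.35 in the scurred animal. SFRP5 was also higher at the horn site in both, by 1.31 in polled replicate 3 and 1.15 in scurred replicate 2, with levels of 11.30 and 10.69 at the horn sites against 9.89 and 9.22 at the control sites. The arrays of the 2 dye orders gave SFRP5 differences of 0.99 and 1.62 in the polled animal and 0.50 and 1.81 in the scurred animal. The SFRP5 mean over both animals, 1.23 (SE 0.111), did not pass (adjusted p 0.934, limma). Its SE comes from 2 animal means and leaves out the spread between arrays. SFRP1 was lower at the horn site in both animals, at −1.04 in the polled and −0.26 in the scurred one (mean −0.65, SE 0.247, adjusted p 0.934, limma).

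**Figure D3:**
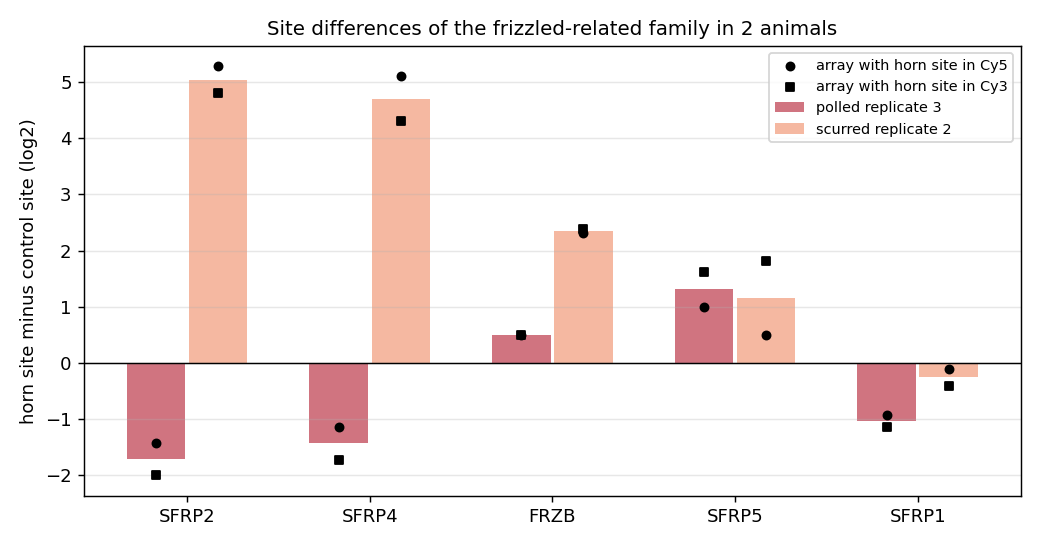
Horn site minus control site (log2, vertical axis) for the 5 family genes in the 2 animals with control biopsies. Bars are means of 2 arrays and points the single arrays, by the dye that carried the horn-site RNA. SFRP2 and SFRP4 point in opposite directions in polled replicate 3 and scurred replicate 2.

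Marker lists of other cells also differed between the sites. Of 4 tested nerve and Schwann cell genes, 4 were higher at the horn site, with a median of 0.89 against an all-probe median of −0.01. Their summed level was 14.52 at the horn site and 13.48 at the control site in polled replicate 3, and 14.24 at the horn site and 12.66 at the control site in scurred replicate 2. Dermal fibroblast genes were higher in 14 of 16 (median 0.37), with a summed level of 18.47 at the horn site and 18.52 at the control site of the polled animal, and 18.89 at the horn site and 18.35 at the control site of the scurred animal. Skeletal muscle genes were higher in 6 of 6 on average (median 2.49), mainly through the scurred animal, whose summed level was 17.63 at the horn site and 12.34 at the control site, where the polled animal had 13.80 at the horn site and 13.73 at the control site. Endothelial genes were higher in 5 of 5 (median 0.45) and macrophage and lymphocyte genes in 6 of 6 (median 0.34). Melanocyte genes were lower in 4 of 4 (median −0.95), smooth muscle and pericyte genes in 5 of 6 (median −0.40) and keratinocyte genes in 8 of 9 (median −0.28). These counts are of means over both animals, which did not always go together. The summed keratinocyte level was 16.39 at the horn site and 17.34 at the control site of the polled animal. In the scurred animal it was 19.00 at the horn site and 18.47 at the control site. The endothelial sum was 15.26 at the horn site and 15.24 at the control site of the polled animal, and 14.61 and 13.60 in the scurred animal. The part of these cells in the site differences of SFRP2, SFRP5 and SFRP1 was not tested.

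Between sexes none of the 3 genes passed. Male minus female was −0.60 (SE 0.729) for SFRP2, 0.54 (SE 0.395) for SFRP1 and −0.47 (SE 0.458) for SFRP5, with an adjusted p of 0.9999 for each in limma. The 95% interval for SFRP2 ran from −2.32 to 1.13.

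Among the other WNT antagonists outside the cell, 14 of 17 listed genes were tested, and none was called in any comparison. In polled minus horned, 11 were higher and 3 lower, with a median of 0.15 beside 0.01 over all probes. The lower ones were SFRP4 at −1.77 (SE 0.755), IGFBP4, an IGF-binding protein that can also inhibit WNT, at −1.39 (SE 0.351), and TPBG, a membrane inhibitor of the pathway, at −0.09. SFRP4 levels were 12.87, 10.54, 13.63 and 11.24 in polled, 13.42, 13.89, 13.34 and 14.75 in scurred and 14.39, 13.45 and 13.08 in horned animals, so polled and horned overlapped. KREMEN2, a co-receptor of DKK proteins, was at 1.19 (SE 0.597), the WNT-binding membrane protein APCDD1 at 0.93, the LRP-binding SOSTDC1 at 0.90, the WNT-binding WIF1 at 0.86 and FRZB at 0.69. DKK1 (0.20), DKKL1 (0.16), SOST (0.14), DKK3 (0.13), KREMEN1 (0.10) and CER1 (0.01) lay nearer to 0. FRZB varied widely, from 7.60 to 11.98 among polled animals, with polled replicates 1 and 4 highest.

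**Figure D4:**
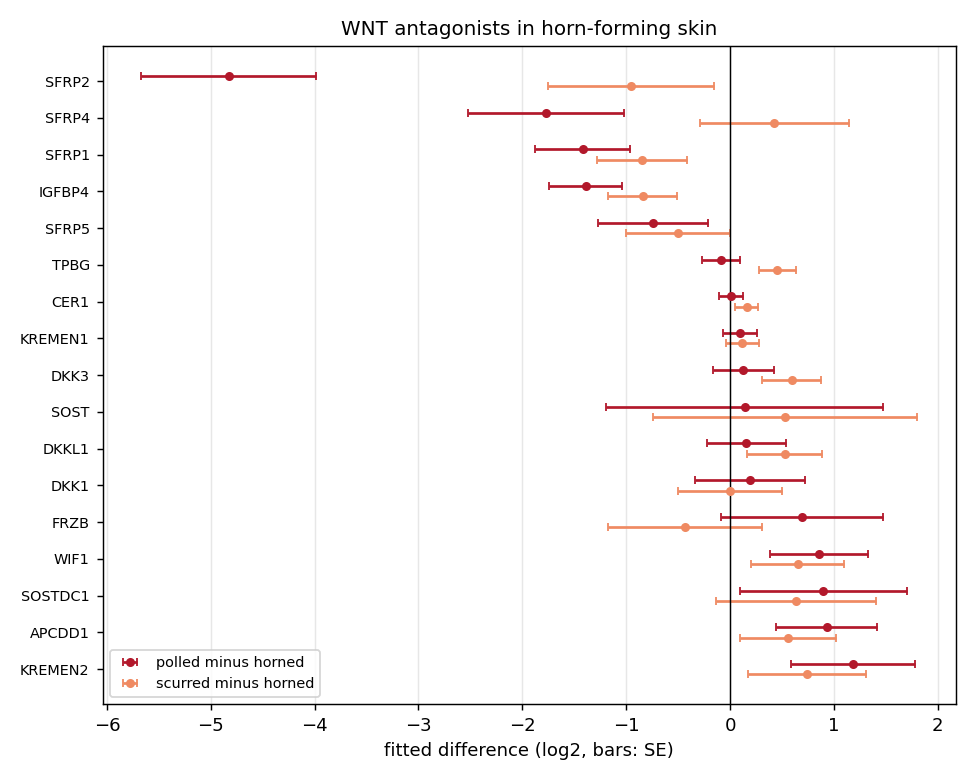
Fitted polled minus horned and scurred minus horned differences (log2, horizontal axis, bars are SE) for the 3 genes and 14 other WNT antagonists. SFRP2 stands at −4.83 in polled animals and no other gene plotted is below −1.77.

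In scurred minus horned the antagonists again had 11 higher and 3 lower (median 0.49), with SFRP4 at 0.43 (SE 0.718) and IGFBP4 at −0.84 (SE 0.334). In scurred minus polled SFRP4 was at 2.20 (SE 0.732), and 8 of 14 were higher. The genes that WNT signalling is known to switch on as feedback were higher in 10 of 10 tested in polled minus horned (median 0.45), 0 of them called. Of 15 listed, 12 were on the array, and AXIN2 and NKD1 among these were too dim to be tested. The transcription factor SP5 was at 1.23 (SE 0.497), APCDD1 at 0.93 and the receptor gene TNFRSF19 at 0.77 (SE 0.118). The direction of a gene was not the same on every chip, and SP5 was at −0.529, 1.561, 2.339 and 1.537 on chips 1 to 4. In scurred minus horned 7 of 10 feedback genes were higher (median 0.23). APCDD1 and DKK1 belong to both the feedback and the antagonist list. LEF1 and TCF7 are counted again below among the genes of transduction inside the cell, and LGR5 and ZNRF3 among the receptor genes.

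The remaining layers of the pathway lay around 0 in polled minus horned. Of 10 ligand and export genes 5 were higher (median 0.09), led in size by WNT10B at 0.57, WNT16 at −0.54 and WNT10A at 0.48. Of 21 receptor and R-spondin genes 10 were higher (median −0.03), led by LGR4, an R-spondin receptor, at 1.12 (SE 0.30), ROR2, a WNT5A receptor, at −0.91 (SE 0.263), and the agonist RSPO3 at −0.90. Of 15 genes of transduction inside the cell 8 were higher (median 0.01), led by BCL9 at −0.63, TCF7 at 0.61 and DVL3 at −0.44. The 3 tested genes of procollagen C-terminal processing were all lower, PCOLCE at −1.36 (SE 0.476), BMP1 at −0.52 (SE 0.195) and PCOLCE2 at −0.16. In scurred minus polled these 3 were all higher, with PCOLCE at 1.19 (SE 0.462). None of the genes of these layers was called.

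In the comparisons with polled animals SFRP2 had the direction of the dermal fibroblast list and a larger difference than any gene of it. In polled minus horned 0 of 16 fibroblast genes were higher (median −0.70), from −1.58 to −0.14, and in scurred minus polled 16 of 16 were higher (median 0.80, highest 1.48). In scurred minus horned 10 of 16 were higher (median 0.08), where SFRP2 was at −0.95. The 3 largest differences of the list in polled minus horned were those of the fibrillar collagen genes COL3A1 (−1.58), COL1A1 (−1.52) and COL1A2 (−1.28). The summed fibroblast level was 17.42 to 18.52 in polled, 18.10 to 19.20 in scurred and 18.80 to 19.00 in horned animals. Of 10 dermal papilla genes 5 were higher and 5 lower in polled minus horned (median −0.19), so that list had no common direction. Its largest differences were CRABP1, a retinoic acid binder, at −2.99 (SE 0.674), the matrix proteoglycan gene VCAN at −0.996 and RSPO3 at −0.90. Its summed level was 13.28 to 14.29 in polled, 13.96 to 15.21 in scurred and 15.39 to 15.45 in horned animals. In horned animals the sum was mostly CRABP1, whose own level was 14.99 to 15.13 there. In polled replicates 2 and 3 CRABP1 was at 11.155 and 10.987, below the list gene SOX18 at 12.26 and 12.396. Keratinocyte genes were higher in 9 of 9 in polled minus horned (median 1.80), with summed levels of 16.39 to 18.68 in polled, 14.77 to 19.87 in scurred and 14.81 to 15.93 in horned animals. Skeletal muscle genes were higher in 6 of 6 (median 1.76) and melanocyte genes in 4 of 4 (median 1.62), and nerve and Schwann cell genes were lower in 4 of 4 (median −0.80). Summed muscle levels overlapped, at 13.80 to 19.31 in polled and 10.78 to 17.05 in horned animals. So did the nerve and Schwann cell sums, at 13.41 to 14.52 and 14.46 to 14.80. The melanocyte sums, at 9.63 to 11.45 and 8.82 to 9.20, did not overlap, and neither did the fibroblast, dermal papilla and keratinocyte sums above. Cartilage and bone sums did not overlap either, at 12.912 to 13.885 in polled and 14.296 to 15.195 in horned animals. Of the melanocyte genes, TYR and TYRP1 were well above background in 0 horned animals, so their horned values are upper limits. In these whole biopsies fewer cells of a type and less RNA per cell cannot be told apart, and the part of cell makeup in the SFRP2 difference was not tested.

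The genes whose levels most resembled SFRP2 over the 13 RNAs, among 11712 genes, were TM4SF18 (Pearson r 0.926, Spearman rho 0.879), OLFML3 (0.92 and 0.934), FOXL2 (0.918 and 0.94), FMOD (0.914 and 0.901) and DDC (0.892 and 0.934). OLFML3 encodes a secreted olfactomedin-like protein, FMOD the collagen-binding proteoglycan fibromodulin, FOXL2 a forkhead transcription factor and DDC the aromatic amino acid decarboxylase. FOXL2 was 9.16, 6.73, 7.46 and 7.22 in polled, 8.48, 9.18, 10.28 and 10.36 in scurred and 10.73, 9.96 and 10.57 in horned animals, with 6.48 and 6.43 at the control sites of the polled and the scurred animal. Like SFRP2 it was highest in replicate 1 among polled animals. FOXL2 was not well above background in either control RNA, so those values are upper limits, and polled replicate 3 was above its own control for FOXL2 but below it for SFRP2. The least alike were SH3GLB2 (r −0.924), RIF1 (−0.906) and FAM107B (−0.892). The RNAs share horn types, chips and channels, so these coefficients describe the 13 RNAs and carry no test.

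**Figure D5:**
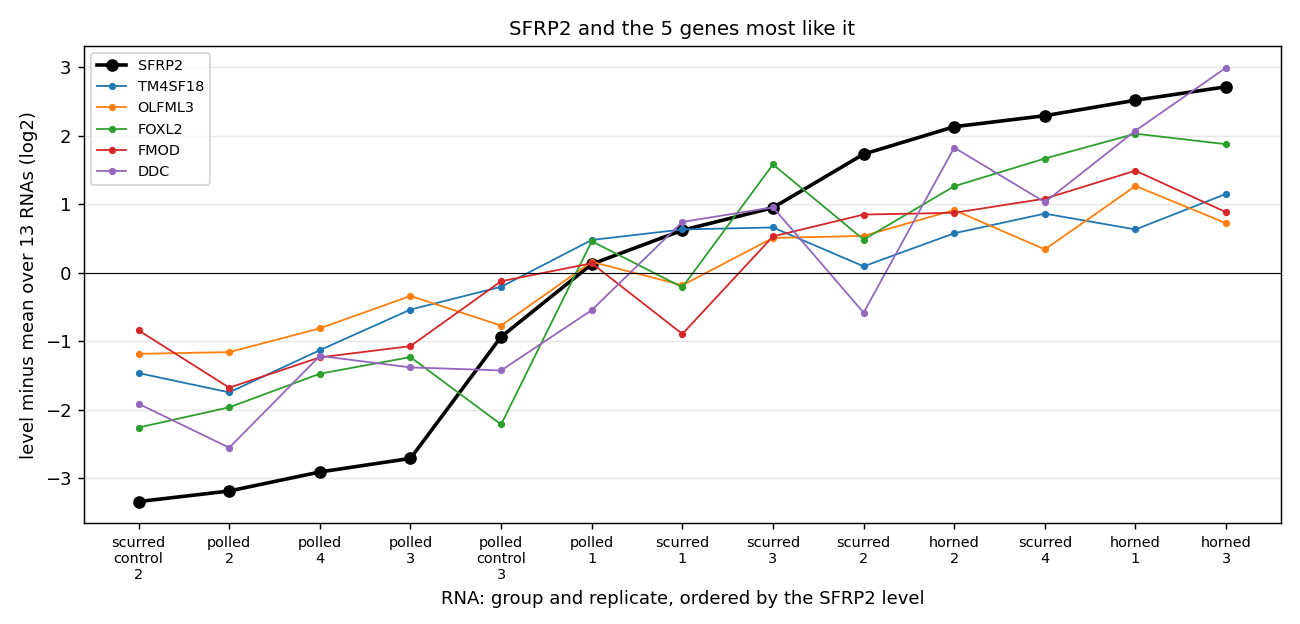
Level minus the gene's mean over 13 RNAs (log2, vertical axis) for SFRP2 and the 5 genes most like it, with RNAs ordered by SFRP2 from low to high. The control RNA of the scurred animal and polled replicates 2, 4 and 3 form the low end, and horned replicates 1 and 3 the high end.

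SFRP5 resembled another set, which included PLEKHA4 (r 0.902, rho 0.923), FGD5 (0.894 and 0.83), C10orf38 (0.892 and 0.874) and LGI4 (0.888 and 0.835). LGI4 encodes a secreted Schwann cell protein needed for myelination in mice. The least alike were MRPL58 (r −0.912), MTFR1 (−0.897) and MYL12B (−0.869).

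SFRP1 had weaker likenesses, with MYBBP1A (r 0.846, rho 0.912), GPR62 (0.828 and 0.879), STEAP2 (0.819 and 0.879), AHCY (0.811 and 0.742) and RPA1 (0.81 and 0.846) at the top and GABARAPL2 (r −0.868), AP4E1 (−0.854) and NAA16 (−0.846) at the bottom. Within the family, r over the 13 RNAs was 0.375 for SFRP1 with SFRP2, 0.593 for SFRP2 with SFRP5, −0.196 for SFRP1 with SFRP5 and 0.689 for SFRP2 with SFRP4.

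The genes next to SFRP2 in the RefSeq gene order did not share its difference. PLRG1, TLR2 and TMEM131L, the 3 tested among the 6 nearest protein-coding genes, were at −0.05, −0.23 and −0.01 in polled minus horned. Beside SFRP1, TCIM was at 0.36 and GOLGA7 at −0.18. Beside SFRP5, 5 neighbours were tested, from CRTAC1 at −0.76 (SE 0.502) to ZFYVE27 at 0.53 (SE 0.174). These neighbours were looked up after the data had been seen.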

How the data were processed

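Skin RNAs were measured on Agilent 2-colour arrays. The deposited scanner files hold each spot's mean intensity and local background in both dyes, on a linear scale, made with Agilent Feature Extraction 9.5.1 per the submitters' processing notes. The series table as deposited holds log10 ratios. Against the scanner values its slope was 1 for 14 columns (red over green) and −1 for the 6 arrays with exchanged dyes, and its column medians ran from −0.019 to 0.00971.

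Here mean intensities were corrected by normexp (offset 50) and normalised by loess within arrays in limma 3.58.1 (R 4.3.3, with data.table at version 1.17.8). Spots marked uneven or outlying were left out and duplicates averaged. A probe was tested if well above background in at least 3 of 11 animals (16309 probes), or 2 of the 4 RNAs of chip 5 (16423). Arrays of chips 1 to 4 were reduced to 8 differences from the horned animal, with a dye term, and fitted by generalised least squares with polled, scurred and male terms (5 residual degrees of freedom). Moderated tests were two-sided, with a Benjamini-Hochberg adjustment over every tested probe and a threshold of 0.05, and the procedure was tested on simulated data. The site comparison set the mean of 2 animals against 0. Levels are separate-channel log2 intensities after loess and Aquantile, averaged per RNA. Differences by chip are not adjusted for sex. The number of arrays limits the precision.

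The chip was the block. The polled and scurred animals of chips 1 to 4, each taken relative to its group mean, correlated at 0.237, 0.298, 0.407 and −0.0818, and animals of different chips at −0.114, −0.107, −0.0972 and 0.0444 on average.

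Names came from the files and the RefSeq table: gene identifiers named 9717 probes, accessions 3398, human genes in descriptions 3033, symbols 128 and older symbols 29. For each list gene the brightest probe was used. Antagonists are all named, other lists by the 3 largest polled minus horned differences, and likeness by the 5 highest and 3 lowest r among genes well above background in at least 7 of 13 RNAs. One gene that this rule names is not reported here. The members, lists and rules were chosen with earlier results of these data known.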

Additional observations from a re-analysis of the deposited data

Results flagged for a closer look

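Polled replicate 1 stood apart from the other polled animals in SFRP2, with a level of 12.70 where the others had 9.38 to 9.86. The polled minus horned difference of chip 1, −2.45, likewise lay apart from −5.48 to −4.98 on chips 2 to 4. For SFRP1 the scurred minus polled difference of chip 1, 2.44, stood apart from 0.20 to 0.48 on the others. All 3 exceeded Dixon's 95% critical value for 4 values, which chance exceeds in about 1 of 20 groups, and all involve polled replicate 1.

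SFRP2 moved in opposite directions between horn site and control site, by −1.72 in polled replicate 3 and 5.05 in scurred replicate 2. The difference was not tested, since each side is 1 animal.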

How the results depend on the processing

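SFRP2 in polled minus horned ranged from −4.99 to −4.61 under 8 other settings and from −5.59 (without polled replicate 1) to −3.96 (without chip 2) when 1 chip or 1 animal was omitted, and SFRP1 from −1.62 to −1.42 and from −1.78 to −1.11. Without the chip as a block, SFRP2 was at −4.84. Scurred minus polled SFRP2 was 2.62 to 4.61 in those leave-out fits, with no call. The counts of called probes are small and moved. Polled minus horned had 0 with median centring and with the deposited table, and 0 to 1 in the leave-out fits (1 only without scurred replicate 1). Scurred minus horned had 1 with median centring and 0 to 1 in the leave-out fits, and scurred minus polled 1 without the sex term. Male minus female had 5 with the deposited table and 5 without the block, 1 with probes well above background in every RNA, and 1 to 4 in the leave-out fits. Directions turned, with no call before or after, for male minus female SFRP2 (−1.05 to 0.53) and SFRP5 (−0.84 to 0.33), scurred minus horned SFRP5 (−0.86 to 0.0061), scurred minus polled SFRP5 (−0.66 to 0.60) and site SFRP2 (−1.72 to 5.05, each animal alone), all in leave-out fits, where fewer animals were fitted. Median centring moved the all-probe median of the site comparison to −0.12. The cause of the other changes was not tested.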
